A study of Camelus dromedarius with 4 samples.

Results

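Thyroid hormone and photoperiod genes are 9 genes that carry, activate, inactivate, bind or sense thyroid hormone, or that relay day length to its local activation: TTR, SLCO1C1, DIO2, DIO3, CRYM, THRA, THRB, TSHR and EYA3. They were chosen by their symbols, not by their values, and are 9 of the 18150 gene symbols in the authors' table of season means. The table was made from RNA-seq of the supraoptic nucleus, the hypothalamic cluster of vasopressin and oxytocin neurones, of the dromedary camel, with 2 libraries from winter and 2 from summer. All animals were healthy, hydrated, age-matched adult males of the Tergui breed, killed for meat on 1 day in January at El Oued (winter) and on 1 day in June at Ouargla (summer), both in the Algerian Sahara. Season, place and day of collection therefore cannot be told apart. The nucleus was dissected and sequenced whole, so that fewer cells of a type and less RNA per cell cannot be told apart either. The study counts 2 camels per season for RNA-seq, though the labels do not tie each library to 1 animal. If the 2 libraries of a season came from 1 animal, p-values would measure only the spread between libraries.

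In mammals and birds that breed by season, day length reaches the hypothalamus through melatonin or light and through thyrotropin (TSH) made in the pars tuberalis of the pituitary. TSH acts on its receptor on tanycytes, the glial cells that line the third ventricle, and changes the ratio of 2 deiodinases: DIO2 makes the active hormone T3 from T4, and DIO3 destroys it. T3 then acts on nuclear receptors that switch genes on or off. The supraoptic nucleus lies in the same hypothalamus, above the optic chiasm, and its neurones are known to hold thyroid hormone receptors.

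Values are normalised reads, which are reads divided by the size factor of their library, and the table gives only their mean over the 2 libraries of a season. Each mean is a sum of whole reads that count a fixed amount in each library, so the reads behind it were recovered by solving for 2 whole numbers. The libraries are called winter A and B and summer A and B, in falling order of size factor within a season (1.33, 0.946, 0.922 and 0.877). A count of 0 allows up to 3 reads by a one-sided limit, or 2.26, 3.17, 3.25 and 3.42 normalised reads in these libraries, which covers counting error only. In the count files that accompany the table, 4379162 to 6902037 reads per library lay on gene models, and these were 20.7% to 27.8% of the tallied alignments. Of the 9 genes, 7 had a value in both seasons, 6 had reads that could be assigned to every library, and 4 (SLCO1C1, CRYM, THRB and EYA3) also had a mean of at least 10 normalised reads in a season and entered the fit. Gene lengths were not used, so levels are compared between libraries and seasons but not between genes.

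None of the genes that could be tested passed a test of a season difference. Of the 4 genes fitted, 0 differed by more than 2-fold with an unadjusted p under 0.05 in edgeR's quasi-likelihood test, the thresholds of the study, against 1.68% (128) of the 7641 symbols fitted. At an adjusted p under 0.05 the share of the symbols fitted was 0.0%, with 152 symbols at an unadjusted p under 0.05. At that adjusted threshold edgeR's exact test, DESeq2 and limma-voom gave 1, 1 and 0 symbols. In 0 of the 4 genes did both libraries of a season lie above both of the other, against 30.5% of all symbols fitted. The median log2 difference, winter against summer, was 0.07 over the 4 genes and -0.11 over all symbols. An exact permutation test of 2 libraries against 2 cannot give a two-sided p below 0.333, so none was used for single genes.

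**Figure D1:**
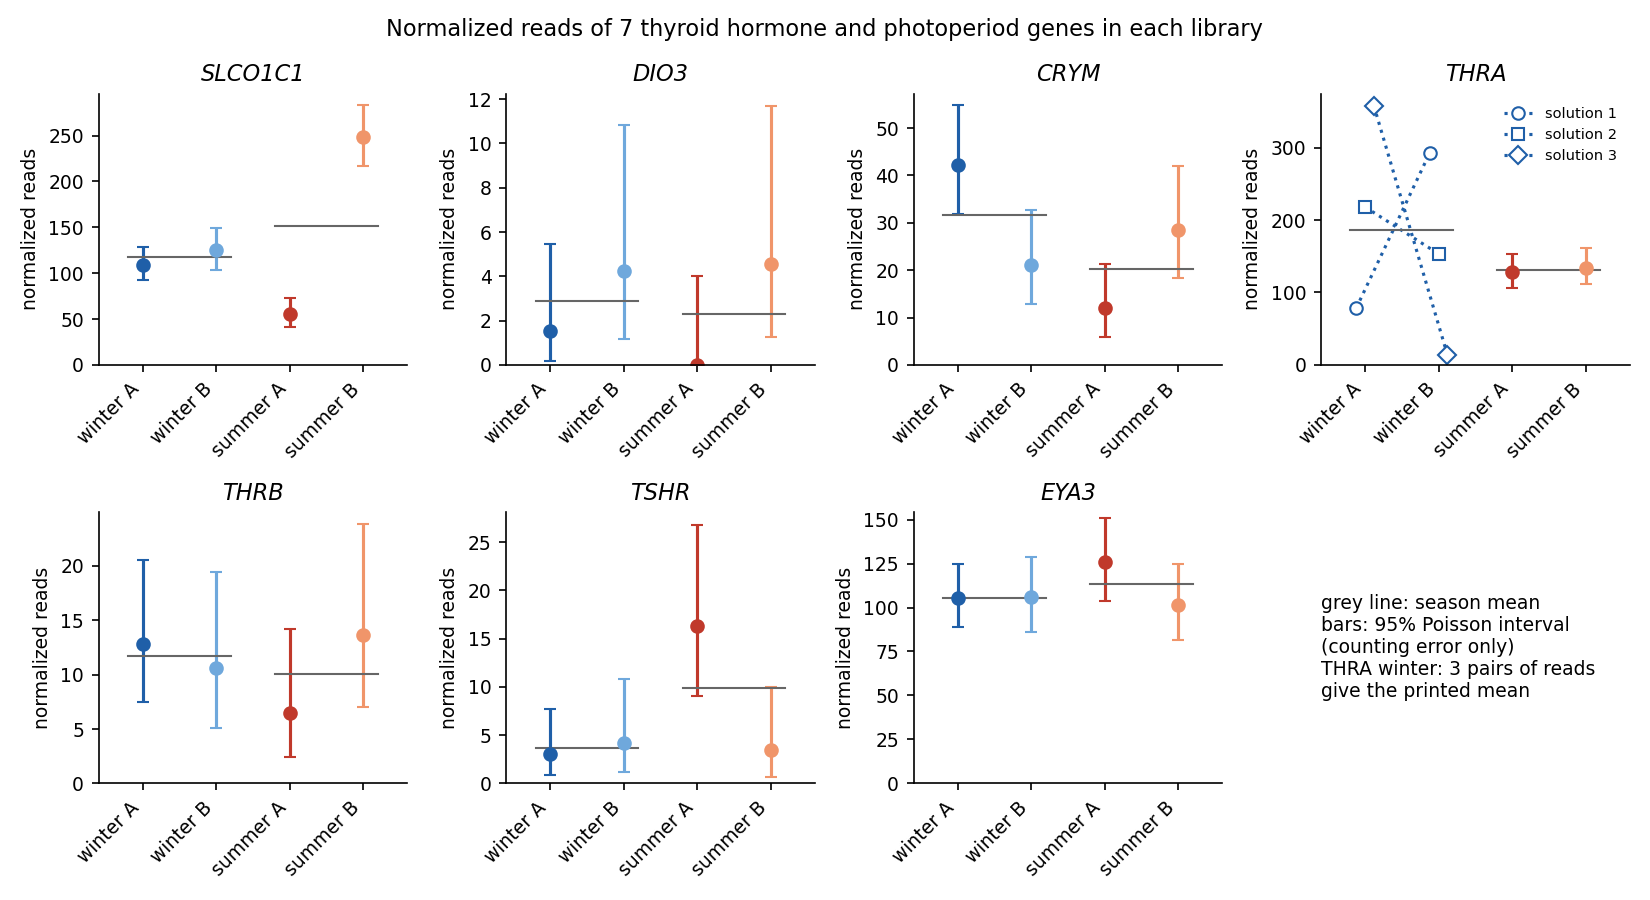
Normalised reads (vertical axes, each starting at 0) of the 7 genes with a value in each of the 4 libraries. Points are libraries, bars are two-sided 95% Poisson intervals that cover counting error only (for the 0 reads of DIO3 in summer A the bar reaches above the one-sided limit of 3.25), and grey lines are season means. SLCO1C1 has its lowest (55.3) and its highest (248) value in the 2 summer libraries, and for THRA the 3 pairs of winter values that give the same mean are joined by dotted lines.

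The carrier and the transporter come first. TTR, transthyretin, is secreted by the choroid plexus and carries T4 in the cerebrospinal fluid. It is listed in the table without a value in either season, as are 2099 of the 18150 symbols. Among the 16049 symbols with a value, 0 were at 0 in both seasons, so a missing value cannot be told apart from a gene with no reads.

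SLCO1C1 encodes a high-affinity T4 transporter of the brain, known from capillary endothelium and choroid plexus in rodents. It had 145 reads in winter A, 118 in winter B, 51 in summer A and 218 in summer B, or 109, 125, 55.3 and 248 normalised reads. Both winter libraries lay between the 2 summer libraries, so the seasons overlapped. The winter values were 1.14-fold apart and the summer values 4.49-fold apart, and the 95% Poisson intervals of summer A (41.2 to 72.7) and summer B (217 to 284) did not meet. The mean was 117 ± 10.9 in winter and 152 ± 137 in summer (SD, n = 2). The fitted log2 difference, winter against summer, was -0.37 (SE 0.61, 95% interval -1.80 to 1.05) with an adjusted p of 0.982 in edgeR's quasi-likelihood test. Which season was higher hung on 1 library: without summer A the log2 difference was -1.09 and without summer B it was 1.08, in opposite directions. Since the spread between the summer libraries carries this result, the recovery of the reads was examined. The pair of summer reads that came next closest, 236 in summer A and 42 in summer B, missed the printed mean by 1.31 times the rounding allowed, against 0.784 times for the accepted pair, and no step sizes that fit 6171 other symbols gave it.

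A summer gap of more than 4-fold was seen in 15.0% of the symbols fitted and a winter gap of that size in 2.62%. At more than 2-fold the shares were 34.4% in summer and 16.8% in winter, and of the 4 genes, SLCO1C1, CRYM and THRB passed this in summer and 0 in winter. Summer B was the higher of the 2 summer libraries for 61.8% of the symbols fitted.

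The markers of the cells that could hold SLCO1C1 were summed in each library, over the genes of each list whose reads were recovered in every library. The 4 endothelial markers had 276 normalised reads in winter A, 307 in winter B, 356 in summer A and 360 in summer B, almost level between the summer libraries (1.01-fold). Both lay above winter only with ABCB1 in the sum, and without it the values were 186, 163, 174 and 203, so that the seasons overlapped. The other 4 endothelial markers had recovered reads in summer only and were not in the sum. VWF, TIE1 and FLT1 were higher in summer A (421, 347 and 252 normalised reads) than in summer B (313, 227 and 237). SLC2A1 was higher in summer B (299 against 243). The 10 choroid plexus markers, which include FOLR1 and the klotho gene KL, had 208, 176, 144 and 348 in the same order, and 10 of 10 were higher in summer B than in summer A. KCNJ13 and KCNE2, channels that help define the choroid plexus, are listed without a value, like TTR. The 7 ependymal markers, genes of motile cilia for the most part, had 214, 268, 87.8 and 617, a 7.02-fold gap in summer (4.35-fold without SPAG17, the gene with the most reads) with 7 of 7 higher in summer B. The 3 astrocyte markers had 334, 157, 137 and 296, and the 6 tanycyte markers 137, 111, 92.2 and 137. The 8 pituitary markers had a 3.02-fold gap in summer with 7 of 8 higher in summer B, and the neurone marker RBFOX3 a 2.18-fold gap. PRL, a pituitary marker without a single winter solution, was not in the sum and had 298 normalised reads in summer A and 128 in summer B. Choroid plexus, ependymal, astrocyte and, less far, tanycyte sums thus moved in the direction of SLCO1C1 between the summer libraries. So did the neurone markers with recovered summer reads, RBFOX3 among them, with 4 of 4 higher in summer B. The sum of 4 endothelial markers was level, and of all 8 endothelial markers 5 were higher in summer A and 3 in summer B. The pituitary sum also rose from summer A to summer B, but it leaves out PRL, which went the other way by more reads. The part of these cells in the SLCO1C1 values was not tested. A family with no known tie to thyroid hormone, the olfactory receptor genes (252 symbols, summed after the SLCO1C1 values were seen), also had its lowest sum in summer A (1605) and its highest in summer B (8239), with 227 of 252 higher in summer B.

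**Figure D2:**
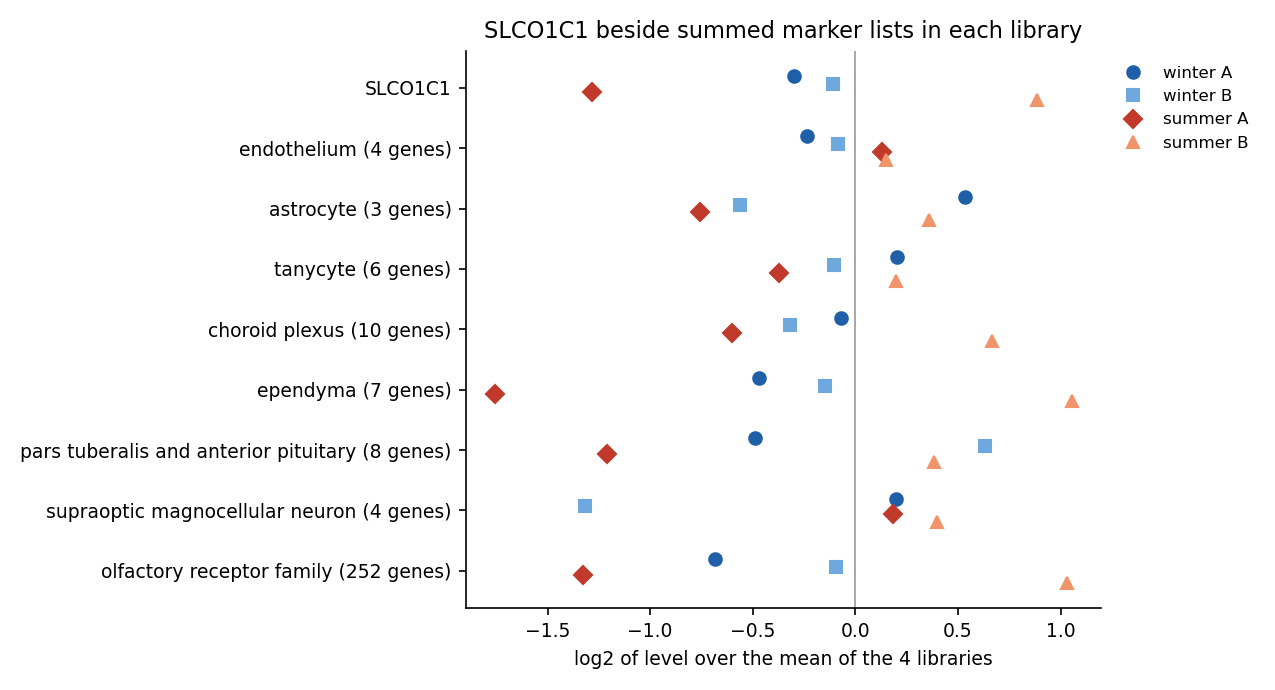
SLCO1C1 and the summed reads of 8 gene lists in each library, as log2 of the level over the mean of the 4 libraries (horizontal axis). Each symbol is 1 library. SLCO1C1, the choroid plexus list, the ependyma list and the olfactory receptor family have summer A lowest and summer B highest. The 2 summer libraries lie together for the 4 endothelial markers summed (356 and 360 normalised reads).

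DIO2, the activating deiodinase and the gene through which day length is best known to act on the hypothalamus, is listed without a value in either season, and nothing can be said of its level. DIO3, the inactivating deiodinase, was near the limit of detection. It had 2 reads in winter A, 4 in winter B, 0 in summer A and 4 in summer B, 10 reads in all, or 1.51, 4.23, 0 and 4.56 normalised reads. Every library held few reads, and the seasons overlapped. The means of 2.87 in winter and 2.28 in summer lay below the minimum for the fit, and a difference was not detectable at this depth. DIO1, the deiodinase of liver and kidney and not one of the 9 genes, had means of 356 in winter and 368 in summer, and its summer libraries held 434 reads (A) and 232 reads (B).

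CRYM, mu-crystallin, binds T3 in the cytosol with NADPH and holds it there. It had 56 reads in winter A, 20 in winter B, 11 in summer A and 25 in summer B, or 42.3, 21.2, 11.9 and 28.5 normalised reads. Winter A was the highest and summer A the lowest, and winter B lay below summer B. The winter mean of 31.7 ± 14.9 was 1.57 times the summer mean of 20.2 ± 11.7 (SD, n = 2). The log2 difference was 0.69 (SE 0.70, 95% interval -0.95 to 2.32), with an adjusted p of 0.982 in edgeR's quasi-likelihood test. This was the largest of the 4 fitted differences, and 25.7% of the symbols fitted differed by as much or more. The size depended on single libraries, from 0.072 without winter A to 1.42 without summer B.

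The receptors follow. THRA encodes the thyroid hormone receptor alpha, the main form in brain, and had means of 186 in winter and 131 in summer, a 1.42-fold difference. Summer A and B each held 118 reads, or 128 and 134 normalised reads, an SD of 4.63. In winter, 3 pairs of reads give the printed mean: 104 in A and 277 in B, 289 and 145, or 474 and 13. As normalised reads these are 78.5 and 293, 218 and 153, or 358 and 13.7, and only with the second pair do both winter libraries lie above both of summer. Entered in turn, the 3 pairs gave log2 differences of 0.49, 0.51 and 0.52, with unadjusted p-values of 0.422, 0.180 and 0.618 in edgeR's quasi-likelihood test, so the test was not passed with any. All 3 pairs give the same mean, which fixes the size and direction of the difference. The end of THRA overlaps NR1D1 on the other strand in mammals. NR1D1 was not analysed here, and whether the counting used strand is not given in the sources used here.

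THRB encodes the thyroid hormone receptor beta, which carries much of the feedback of the hormone on the hypothalamus and pituitary. It had 17 reads in winter A, 10 in winter B, 6 in summer A and 12 in summer B, or 12.8, 10.6, 6.51 and 13.7 normalised reads. The highest and the lowest library were both from summer. The means were 11.7 ± 1.59 in winter and 10.1 ± 5.07 in summer (SD, n = 2), and the log2 difference of 0.24 (SE 0.83, 95% interval -1.71 to 2.18) had an adjusted p of 0.986 in edgeR's quasi-likelihood test. With 45 reads in the 4 libraries together, the interval still ran from 0.306 to 4.53 times the summer level. The log2 difference turned to -0.21 without summer A.

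TSHR, the TSH receptor, is the entry point of the photoperiod signal on tanycytes. It had 4 reads in winter A, 4 in winter B, 15 in summer A and 3 in summer B, or 3.02, 4.23, 16.3 and 3.42 normalised reads. Summer A alone stood above the other libraries, and summer B lay between the winter libraries. The summer mean of 9.84 was 2.72 times the winter mean of 3.62, a larger ratio than for any other of the 7 genes. Both means were under 10, so TSHR did not enter the fit, and without the filter its log2 difference was -1.46 (unadjusted p = 0.210 in edgeR's quasi-likelihood test). The ratio rested on 1 library: without summer A the log2 difference of the means was 0.084. Like EYA3, TSHR was higher in summer A than in summer B, and SLCO1C1, CRYM, THRB and DIO3 were lower there.

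EYA3, a transcriptional coactivator of the EYA family, switches on the TSH beta gene in the pars tuberalis on long days. It had 140 reads in winter A, 100 in winter B, 116 in summer A and 89 in summer B, or 105.6, 105.8, 126 and 101 normalised reads. These were the most even values of the 4 fitted genes: the winter libraries agreed to 1.00-fold, the summer libraries to 1.24-fold, and both winter values lay between those of summer. The means were 105.7 ± 0.0813 in winter and 114 ± 17.2 in summer (SD, n = 2). The log2 difference was -0.10 (SE 0.33, 95% interval -0.88 to 0.67) with an adjusted p of 0.986 in edgeR's quasi-likelihood test, and it turned to 0.059 without summer A. Of the 4 fitted genes EYA3 had the narrowest interval, from 0.544 to 1.59 times the summer level.

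**Figure D3:**
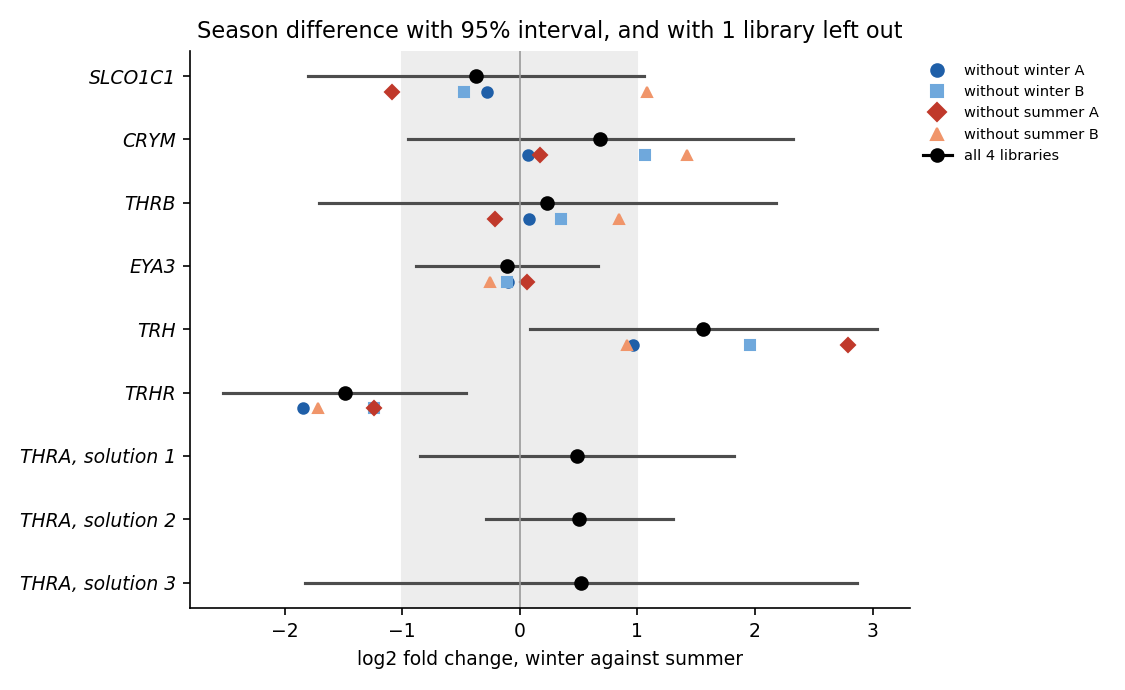
Log2 difference, winter against summer (horizontal axis, positive where winter is higher), of the 4 fitted genes, of TRH and TRHR, and of THRA under each of its 3 winter solutions. Black points and bars are estimates from all 4 libraries with 95% intervals, coloured points leave out 1 library, and the grey band marks changes under 2-fold. The intervals of SLCO1C1, CRYM, THRB, EYA3 and THRA all include 0, and the points of SLCO1C1 without summer A (-1.09) and without summer B (1.08) lie on opposite sides.

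The means of all 5 genes at 10 or more normalised reads were also set against the whole table, which needs no recovered reads. Of THRA, SLCO1C1, EYA3, CRYM and THRB, 0 differed more than 2-fold between the seasons, against 7.26% (1002) of 13808 symbols. THRA, CRYM and THRB were higher in winter, and SLCO1C1 and EYA3 in summer.

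**Figure D4:**
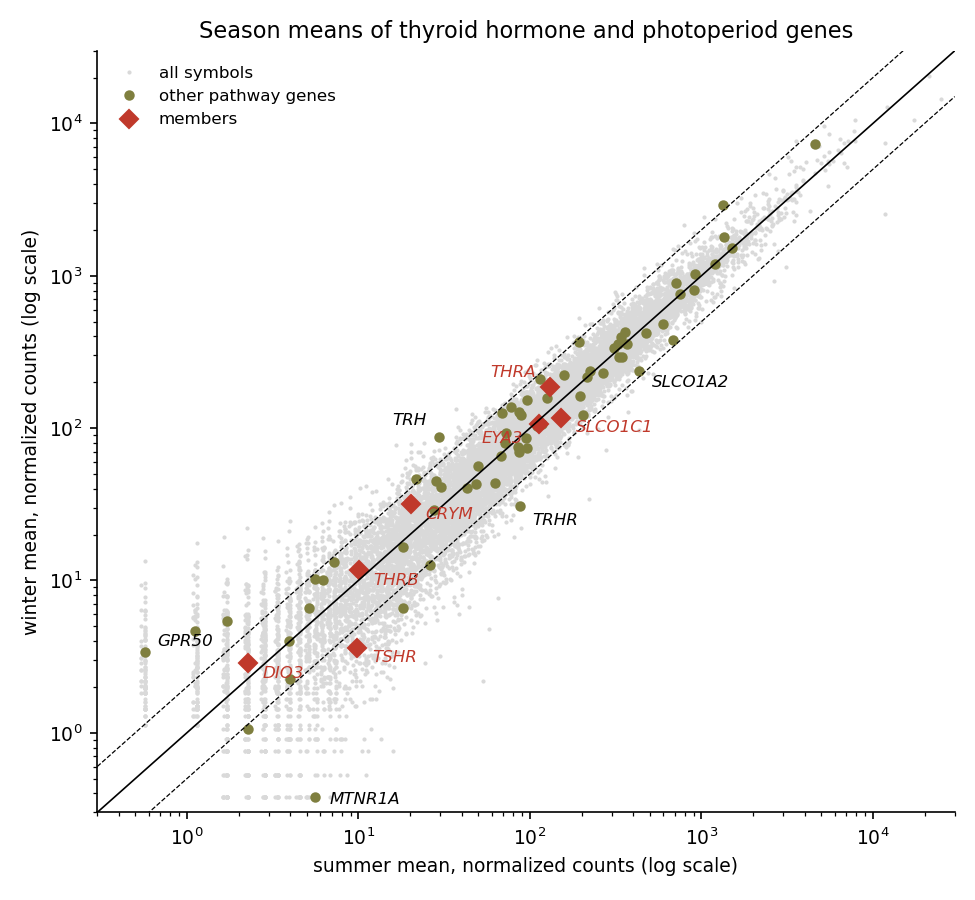
Winter mean against summer mean in normalised counts (log axes) for all symbols above 0 in both seasons (grey), for the 7 genes with a value (red) and for the other genes of the pathway (olive). The solid line marks equal means and the dashed lines 2-fold differences. TSHR (3.62 in winter, 9.84 in summer) is the 1 red point outside the dashed lines.

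The other genes of the pathway were taken from 6 lists with 74 entries, of which 68 had a value and 29 were fitted. Of these 29, 2 passed the study's thresholds (6.90%, against 1.68% of all symbols fitted), 1 in each direction. In 10 the seasons did not overlap (against 30.5% of all symbols fitted). The median log2 difference was -0.04, with 14 genes above 0 and 15 below. Both genes that passed belong to the hypothalamo-pituitary-thyroid axis, of which 4 genes were fitted.

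TRH, thyrotropin-releasing hormone, had 154 reads in winter A, 55 in winter B, 43 in summer A and 11 in summer B, or 116, 58.2, 46.6 and 12.5 normalised reads. Both winter libraries lay above both of summer, and the libraries of each season were far apart. The log2 difference was 1.56 (SE 0.63, unadjusted p = 0.0407, adjusted p = 0.982 in edgeR's quasi-likelihood test). It fell below 2-fold without winter A (0.96) or without summer B (0.91), and was 1.96 without winter B and 2.79 without summer A. The receptor gene TRHR was higher in summer, with 49, 23, 94 and 64 reads in the same order, or 37.0, 24.3, 102 and 72.9 normalised reads. Its log2 difference was -1.49 (SE 0.44, unadjusted p = 0.0108, adjusted p = 0.982 in edgeR's quasi-likelihood test). With a library left out it ran from -1.84 to -1.24. TRHDE, the enzyme that breaks down TRH and the gene with the highest mean of this list, had means of 106 in winter and 118 in summer. TSHB, the hormone subunit that EYA3 is known to switch on, had 6 reads in winter A, 7 in summer B and 0 in the others.

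Of the other transporters, 0 of 5 fitted genes passed. SLCO1A2 had the highest mean (238 in winter and 432 in summer). SLC17A4, a transporter of T4 and T3, had 11, 16, 1 and 45 reads in winter A and B and summer A and B, lowest in summer A and highest in summer B like SLCO1C1, while 4 of the 7 transporter genes with recovered summer reads were higher in summer A. Of the genes of hormone metabolism and selenoprotein synthesis, which deiodinases need, 0 of 6 fitted passed, and WSB1, which marks DIO2 protein for degradation, had the highest means (765 in winter and 750 in summer). IYD, which recovers iodide from iodotyrosines, had 9, 6, 0 and 32 reads, also lowest in summer A and highest in summer B. It was chosen after its values were seen, and 6 of the 10 genes of this list with recovered summer reads, DIO1 and EEFSEC among them, were higher in summer A.

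The partners of the receptors gave 4 fitted genes, of which 0 passed. Their log2 differences ran from -0.52 to 1.10, and in 3 of the 4 the seasons did not overlap (against 30.5% of the symbols fitted). The season means of 2 of the 19 partners were more than 2-fold higher in winter and of 0 in summer (10.5%, against 7.26% of symbols with a mean of at least 10). Over all 19 the winter mean was the higher in 14, with a median log2 ratio of 0.26, beside -0.04 for all symbols with a mean of at least 10. The coactivator EP300 had 112, 141, 64.0 and 74.1 normalised reads in winter A and B and summer A and B, and its log2 difference of 0.87 (unadjusted p = 0.0390, adjusted p = 0.982 in edgeR's quasi-likelihood test) was under 2-fold. RXRG, a partner with which the receptors bind DNA, had a log2 difference of 0.35 (SE 0.47).

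Of the genes that respond to thyroid hormone, 1 was fitted (CAMK4, log2 difference -0.09, SE 0.40) and did not pass. The highest mean was that of MBP, a myelin gene, with of 7277 in winter and 4571 in summer, and KLF9, a direct target of the receptors, had 422 and 477. Of the other photoperiod genes 0 of 9 fitted passed. EYA4, of the same family as EYA3, had 108, 137, 97.6 and 310 normalised reads in winter A and B and summer A and B, with summer B highest, while EYA3 was lowest there. ALDH1A1, which makes retinoic acid, had the highest mean (1203 in winter and 1192 in summer). The melatonin receptor gene MTNR1A had 1, 0, 4 and 6 reads, too few to compare.

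The remaining cell type lists bear on what the dissection held. Markers of magnocellular neurones had values: OXT had means of 621 in winter and 592 in summer, and the sum of SIM1, OTP, POU3F2 and PDYN was 251, 87.8, 248 and 288 in winter A and B and summer A and B, with winter B far below the others. AVP was not analysed here. Of the general neurone markers, STMN2 and ELAVL4 are listed without a value, and RBFOX3 had 53.6, 37.0, 15.2 and 33.1 normalised reads. The 5 with a value all had the higher mean in winter, with a median log2 ratio of 0.84, beside -0.04 for all symbols with a mean of at least 10. The 4 with recovered summer reads were all higher in summer B than in summer A. Of the pituitary markers GH1 had means of 1132 in winter and 464 in summer. The sum of the 8 with reads recovered in every library, TSHB among them but not PRL, was 86.0, 187, 52.1 and 157. No oligodendrocyte marker had reads recovered in both seasons, and 6 of 7 had the higher mean in winter. MOBP alone had recovered summer reads, 196 normalised reads in summer A and 149 in summer B. None of these sums followed the order of SLCO1C1 across all 4 libraries, and their part in the values of the 9 genes was not tested.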

How the data were processed

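Supraoptic nucleus libraries (stranded total RNA, rRNA removed, paired ends) were grouped by season from the sample labels. Alignment by the authors was with TopHat to a dromedary genome they had assembled, and HTSeq gave the deposited counts, which are raw reads per gene model without symbols and served here for depth only. The deposited signal is given per symbol and is a season's mean of counts after division by DESeq size factors. The same table holds the authors' fold changes and p-values, which were not used. Whole reads were recovered from the means (6 significant digits) for 100% of symbols with a value, 9882 with a single solution. The replicate numbers of the libraries are not known from this, although size factors of 1.27 and 0.901 in the count files point winter A to winter replicate 2. Symbols with a single solution whose mean reached 10 in either season were fitted with edgeR 4.0.16 (glmQLFit, legacy FALSE, glmQLFTest) in R 4.3.3, with the size factors above as offsets and Benjamini-Hochberg adjustment over all 7641. The fit replaces a fit on the count files, which cannot be joined to symbols.

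Alternatives were limma-voom (limma 3.58.1), DESeq2 1.42.0, edgeR's exact test, other scalings, filters and subsets, and leaving out each library. Scripts were tested on simulated data. The genes and lists were chosen with earlier results of these data known. Named are the 9 genes, pathway genes past the thresholds and the gene with the highest mean of each list, except for some genes that are not reported here. DIO1, SLC17A4, IYD, EP300, RXRG, CAMK4, KLF9, EYA4, TSHB, MTNR1A and single markers were added after their values were seen. Depth and 2 libraries per season limit the precision.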

Additional observations from a re-analysis of the deposited data

How the results depend on the processing

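No paired analysis was possible because the labels of the seasons share only replicate number 2 and the recovered libraries carry no replicate numbers. The count of the 4 fitted genes past the thresholds was 0 in the full data and under every other test, scaling, filter and subset run, and 0 to 1 with a library left out (SLCO1C1 without either summer library). The count of pathway genes was 2 under the same settings and 1 to 6 with a library left out (1 without winter A, 1 without winter B, 6 without summer A, 4 without summer B). With a library left out, log2 differences ran from -1.09 to 1.08 for SLCO1C1, -0.21 to 0.85 for THRB, -0.25 to 0.059 for EYA3, -2.17 to 0.084 for TSHR and -0.67 to 0.89 for DIO3 (-0.60 without winter B, -0.67 without summer A, with no value without summer B). CRYM kept its sign, from 0.072 to 1.42. Over the other tests, scalings and filters CRYM ran from 0.65 to 0.79, THRB from 0.21 to 0.34, EYA3 from -0.10 to -0.025 and SLCO1C1 from -0.38 to -0.00068 (limma-voom). In the subset of low means EYA3 and SLCO1C1 had no value, and with a tolerance 10 times wider they and THRA had several solutions.

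Of all symbols fitted, 128 passed, against 60 with DESeq2, 83 with limma-voom, 79 with the minimum in both seasons, 35 and 50 without winter A or B, and 1105 and 1158 without summer A or B, where the biological coefficient of variation was 0.288 in place of 0.460. When scaled by total reads, 168 passed and winter was the higher season in 122 of them, compared with 65 of 128 in the full data as scaled by the authors. The log2 ratio of the endothelial sum was -0.30, and -0.11 without its most abundant gene. The median log2 difference of all symbols fitted was -0.11, and -0.01 with limma-voom. Lone libraries left in a season are assumed to vary like the others. The causes were not tested. Read depth limits DIO3, TSHR and THRB most.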

Other observations

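The symbols whose pattern over the 4 libraries came closest to that of a member were sought among all symbols fitted, by the Euclidean distance of centred log2 values (normalised reads + 1). DIO3 varied most on this scale (SD 1.16), though on 10 reads only, and nearest to it were NEXN (distance 0.0714), MYOZ2 (0.138), FREM2 (0.187), OR52K1 (0.217) and GRIN2C (0.251). For SLCO1C1, the most variable of the fitted genes (SD 0.880, chosen after its values were seen), the nearest were PKHD1 (0.102), ZNF385D (0.128), BFSP1 (0.128), KCNU1 (0.136) and GDA (0.154). PKHD1, a gene of cilia in kidney and bile duct, had 56 reads in winter A, 49 in winter B, 20 in summer A and 93 in summer B. How often distances this small arise by chance among 7641 patterns over 4 libraries was not tested.

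Other photoperiod and hormone-responsive genes with few reads were GPR50, a melatonin-related receptor of tanycytes, with 2, 5, 0 and 1 reads in winter A and B and summer A and B, and THRSP, a lipogenic gene that thyroid hormone induces, with 6, 6, 0 and 3. In both genes the 2 winter libraries held more reads than either of summer, in MTNR1A both summer libraries held more, and all 3 were below the minimum for the fit (among the symbols fitted, the seasons did not overlap in 30.5%). HR, a corepressor gene that thyroid hormone induces in brain, had means of 368 in winter and 194 in summer. KISS1, NPVF, MTNR1B and FLYWCH2 are listed without a value, and SLC7A5 and NMU were not analysed here.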
